A study of Mus musculus with 20 samples.

Results

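A group of 9 motile cilium genes, Foxj1, Spef2, Drc7, Rsph4a, Rsph1, Cfap43, Armc2, Ect2l and Dnah10, was followed over 20 microarrays of mouse amygdala and hippocampus. The genes were chosen from measured values of these same arrays, and which contrast chose them is not recorded. Their differences are therefore given as descriptions, with no test. The 9 genes are represented by 53 transcript clusters, the probe sets that the array builds for 1 transcribed region, out of 28853 on the array. A cluster was kept when the array annotation paired it with exactly 1 gene symbol and that symbol was a listed gene. Foxj1, Drc7, Rsph4a and Rsph1 had 1 cluster each, Armc2 had 4, Cfap43 and Dnah10 had 5 each, Ect2l had 13 and Spef2 had 22. The level of a gene with several clusters is the mean of their log2 values, which are values per probe set and cannot be ranked between genes.

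The WT mice were C57BL/6, and the DKO mice lacked the calcium-stimulated adenylyl cyclases AC1 and AC8 (Adcy1 and Adcy8). All were male and 2 mo old. Conditioned fear (CF) training lasted 5 min and used a single foot shock of 0.7 mA for 2 sec. Tissue was taken before training (baseline), directly after it (0 hr), 1 hr later or 48 hr later, and in a last set of mice at 1 wk, with a 5 min testing trial. The methods count this week from training, with the trial just before killing, while the labels count it from the trial. The RNA of 5 to 10 mice was pooled for an array, with 1 array for each region, genotype and time point, so a region and genotype has 5 arrays that differ in time. The WT mice came from other litters than the DKO mice. The latter were bred from matings kept on doxycycline until weaning, and they could carry a transgene of an AC8 rescue line, so these differences and the AC deletion cannot be told apart. The array medians lay between 6.64 and 6.83 on the log2 scale. Adcy8 was at 6.94 to 7.66 on the 10 WT arrays and at 5.22 to 5.89 on the 10 DKO arrays. Adcy1 was lower on every DKO array than on every WT array of the same region, so both targeted genes bear out the labels.

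Motile cilia are the beating hairs of ependymal cells, which line the brain ventricles and move cerebrospinal fluid. Their core, the axoneme, is a ring of microtubule doublets around a central pair. Dynein arms on the doublets make the force, radial spokes pass signals from the central pair to the arms, and the nexin-dynein regulatory complex links neighbouring doublets and coordinates the arms. Foxj1 and the RFX factors switch on the genes of this machinery. Choroid plexus epithelium, which secretes cerebrospinal fluid into the same ventricles, also carries cilia and expresses part of this gene set. The samples were bulk tissue punches, in which fewer cells of a type and less RNA per cell cannot be told apart.

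RefSeq promoter sequence (GRCm38.p6, 250 bases before to 50 after the start) was found for 5 of the 9 genes, namely Drc7, Dnah10, Spef2, Cfap43 and Ect2l. Those of Drc7, Dnah10, Spef2 and Cfap43 are shown because they hold short motifs named for the 2 factor families that control ciliary genes. Capitals mark the RFX motif GTTNCC and the forkhead motif GTAAACA, searched on both strands, and each sequence runs 5′ to 3′ along its gene.
Drc7 chr8:95054853-95055152 (+ strand): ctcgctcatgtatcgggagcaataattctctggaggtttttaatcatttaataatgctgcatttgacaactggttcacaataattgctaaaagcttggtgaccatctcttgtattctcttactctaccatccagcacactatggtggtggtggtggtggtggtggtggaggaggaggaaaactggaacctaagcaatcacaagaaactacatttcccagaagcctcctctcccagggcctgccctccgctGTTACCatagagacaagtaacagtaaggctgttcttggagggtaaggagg
Dnah10 chr5:124724835-124725134 (+ strand): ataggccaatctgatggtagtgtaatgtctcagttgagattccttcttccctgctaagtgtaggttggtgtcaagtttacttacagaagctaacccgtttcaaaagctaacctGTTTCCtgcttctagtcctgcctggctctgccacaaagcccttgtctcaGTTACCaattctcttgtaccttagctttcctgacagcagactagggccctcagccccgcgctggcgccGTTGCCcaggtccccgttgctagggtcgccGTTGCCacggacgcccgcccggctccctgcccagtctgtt
Spef2 chr15:9748819-9749118 (− strand): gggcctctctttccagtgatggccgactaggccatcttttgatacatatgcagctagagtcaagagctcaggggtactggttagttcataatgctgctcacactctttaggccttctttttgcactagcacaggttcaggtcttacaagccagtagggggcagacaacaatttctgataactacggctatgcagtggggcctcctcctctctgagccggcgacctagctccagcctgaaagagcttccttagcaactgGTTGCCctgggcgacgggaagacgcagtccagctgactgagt
Cfap43 chr19:47837312-47837611 (− strand): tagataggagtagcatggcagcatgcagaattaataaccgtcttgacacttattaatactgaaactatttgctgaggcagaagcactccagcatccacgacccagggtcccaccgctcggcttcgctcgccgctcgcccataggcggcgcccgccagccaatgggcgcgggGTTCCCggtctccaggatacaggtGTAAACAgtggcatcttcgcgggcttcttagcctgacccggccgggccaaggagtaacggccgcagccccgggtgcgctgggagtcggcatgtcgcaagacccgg
Dnah10 held 4 RFX motifs, and the other 3 genes shown held 1 each. That of Drc7, GTTACC, begins at the annotated start site itself. Both GTTGCC matches of Dnah10 lie near its start, at 20 bases before and 10 bases after it, and the GTTGCC of Spef2 lies 8 bases after it. The GTAAACA of Cfap43 begins 55 bases before the start. Among all 32851 RefSeq promoters, 45.3% held at least 1 GTTNCC, so a single match is common, 3.02% held 3 or more, and 3.65% held a GTAAACA. These letter matches are descriptions of the windows, and binding was not measured.

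The 9 genes differed widely in how much they moved over the 20 arrays. Rsph4a spanned 2.09 log2 units from its lowest to its highest array, Rsph1 spanned 1.53 and Drc7 spanned 1.07. Cfap43, Armc2, Dnah10, Foxj1, Spef2 and Ect2l spanned between 0.24 and 0.79. Apart from Foxj1 these are means of several clusters, so their spans are not like those of genes with 1 cluster. A single cluster spanned 1.43 in Armc2, 1.37 in Cfap43 and 1.24 in Spef2. The mean of the 9 genes ran from 5.77 on the DKO hippocampus array at 1 wk to 6.45 on the DKO amygdala array at 1 hr. The plot of the levels by time shows these patterns gene by gene.

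**Figure D1:**
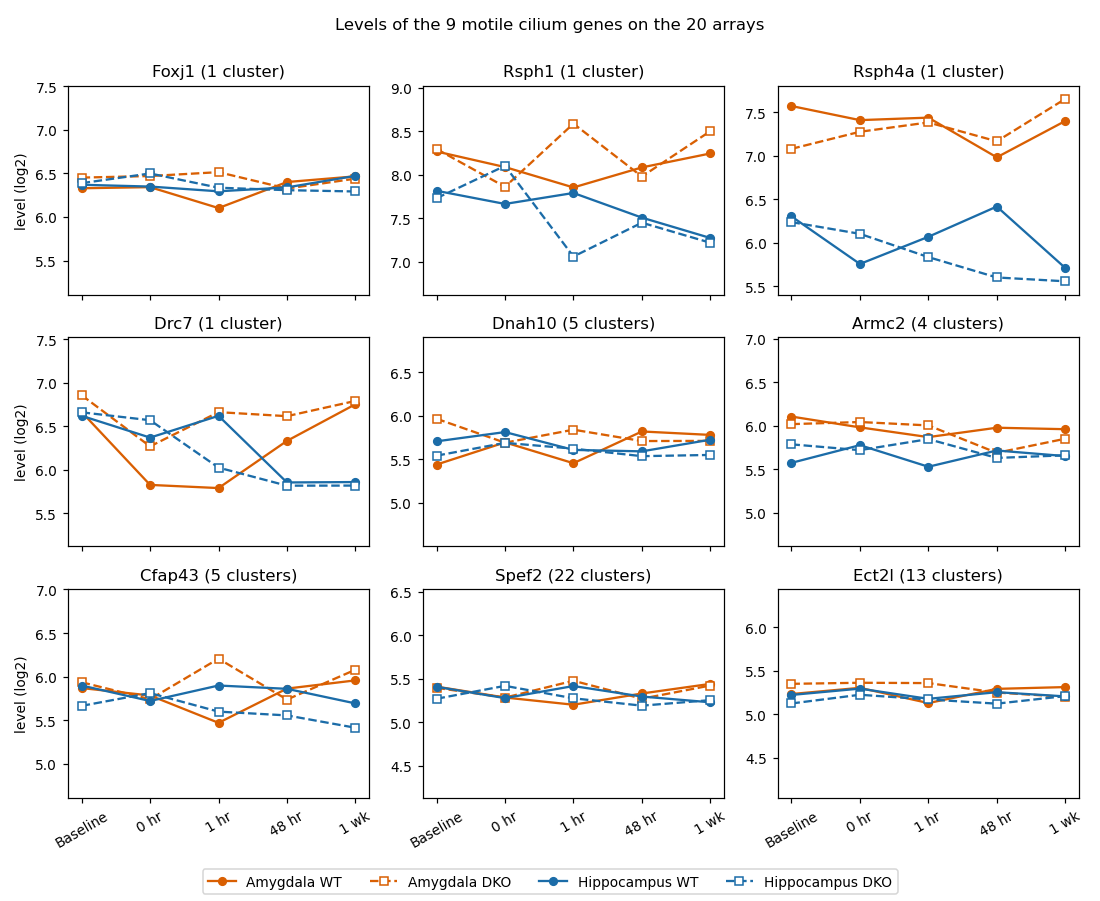
Levels of the 9 genes (log2, y axis, all panels of equal span) before training and at the 4 later times (x axis), with amygdala in orange, hippocampus in blue, WT as filled circles and DKO as open squares. Each point is 1 array of pooled mice and lines join arrays of different mice. Rsph4a separates the regions on every array, while Drc7 moves between about the same high and low levels in both.

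Foxj1, the forkhead transcription factor that drives the motile cilium program, was nearly level. In the amygdala it was lowest at 6.10, with a median of 6.42 and a highest value of 6.51, and in the hippocampus it was at 6.29, 6.34 and 6.50. The lowest of all 20 values was the WT amygdala array at 1 hr, and the hippocampus range lay inside that of the amygdala. Foxj1 was read from 1 cluster, whose mean level was at percentile 40.9 of all clusters.

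Rsph4a encodes a protein of the radial spoke head and showed the widest gap between the regions. In the WT amygdala it was at 7.57 before training and at 7.41, 7.44, 6.98 and 7.40 at the later times, from 0 hr to 1 wk. In the DKO amygdala it was at 7.08, 7.28, 7.38, 7.17 and 7.65 in the same order. The hippocampus was lower throughout, with 6.30, 5.76, 6.07, 6.42 and 5.71 in WT mice. In the DKO hippocampus the values were 6.24, 6.10, 5.84, 5.60 and 5.56. The lowest amygdala array was above the highest hippocampus array, so the regions did not overlap. The amygdala mean was 7.34 ± 0.21 (SD, n = 10) and the hippocampus mean 5.96 ± 0.31, a fold of 2.60.

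Rsph1, a second radial spoke head gene, was also higher in the amygdala, with overlap. The WT amygdala arrays were at 8.27, 8.09, 7.85, 8.08 and 8.24 in time order. Those of the DKO amygdala were at 8.29, 7.86, 8.59, 7.98 and 8.50. The WT hippocampus arrays were at 7.82, 7.66, 7.79, 7.51 and 7.27. DKO hippocampus values were 7.73, 8.10, 7.06, 7.45 and 7.22, and the 0 hr value of 8.10 was the only hippocampus array inside the amygdala range. The amygdala mean was 8.18 ± 0.25 and the hippocampus mean 7.56 ± 0.32 (SD, n = 10), a fold of 1.53. In arrays matched for genotype and time, the hippocampus was the lower in 9 of 10 pairs for Rsph1 and in 10 of 10 for Rsph4a.

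Drc7 encodes a subunit of the nexin-dynein regulatory complex. Its values ran from 5.79 to 6.85 in the amygdala and from 5.82 to 6.66 in the hippocampus. The WT amygdala was at 6.66, 5.82, 5.79, 6.33 and 6.75 from baseline to 1 wk. The DKO amygdala was at 6.85, 6.27, 6.66, 6.61 and 6.79. The WT hippocampus was at 6.62, 6.37, 6.62, 5.85 and 5.86, and the DKO hippocampus at 6.66, 6.57, 6.02, 5.82 and 5.82. The 7 arrays at 6.02 or less were those of the WT amygdala at 0 hr and 1 hr, both hippocampus arrays at 48 hr and at 1 wk, and the DKO hippocampus at 1 hr, and the DKO amygdala at 0 hr (6.27) and WT amygdala at 48 hr (6.33) came next. The region means differed by −0.23 (hippocampus minus amygdala), which is less than the SD over arrays of 0.39 in the amygdala and 0.38 in the hippocampus.

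Armc2, an armadillo repeat gene needed in mice to build the sperm axoneme, was lower in the hippocampus in 10 of 10 matched pairs, by a mean of 0.26 on the log2 scale. Its amygdala arrays ran from 5.69 to 6.10 and its hippocampus arrays from 5.53 to 5.84, so the ranges overlapped. Cfap43, a ciliary protein whose loss causes hydrocephalus in mice, had a region difference of −0.15, with ranges of 5.47 to 6.21 and 5.41 to 5.90. Dnah10, a heavy chain of the inner dynein arm, had a difference of −0.07. Spef2, a central pair protein, had −0.05, and Ect2l had −0.08. The differences of Cfap43, Dnah10 and Spef2 were smaller than the SD over arrays in at least 1 region, and that of Ect2l was close to its amygdala SD of 0.08.

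All 9 region means were lower in the hippocampus, and 43 of the 53 clusters were (81.1%), beside 59% of all clusters on the array, but their sizes were far apart. The cluster differences had a median of −0.10, beside −0.02 over all 28853 clusters. Rsph4a was the 1 cluster of 53 with every amygdala array above every hippocampus array, a pattern that 1.81% of all clusters showed. The 5 clusters of Cfap43 and the 4 of Armc2 all pointed the same way, with Armc2 ranging from −0.51 to −0.15. The clusters of Spef2 did not share a direction. Of its 22 clusters 16 were lower and 6 higher in the hippocampus, from −0.24 to 0.30, and its brightest cluster was higher there by 0.12. Ect2l had 10 lower and 3 higher, and its brightest cluster differed by 0.04. Only 5 of the 53 clusters, from 4 of the genes, had a mean level above the median of all clusters.

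**Figure D2:**
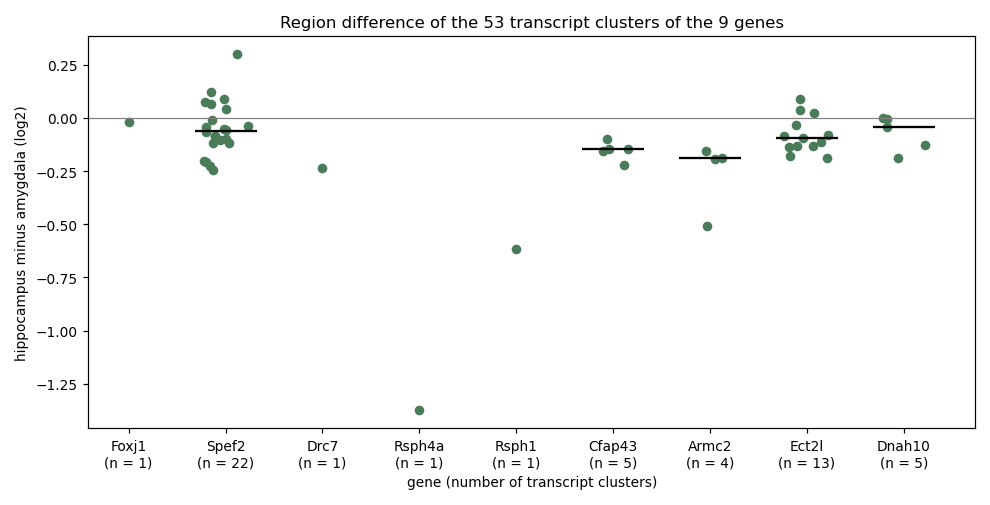
Mean of the 10 hippocampus arrays minus mean of the 10 amygdala arrays (log2, y axis) for each of the 53 transcript clusters, by gene (x axis). Points are clusters and bars are the medians of genes with several clusters. Rsph4a lies at −1.38 and Rsph1 at −0.61, and the clusters of Spef2 lie on both sides of 0.

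The regions also differed in marker genes of other cell types and of neighbouring tissue. Of the 8 striatal genes measured, 7 were higher in the amygdala by limma, and their mean level was at 8.99 to 9.83 there and at 8.04 to 8.32 in the hippocampus. All 7 oligodendrocyte genes, 8 of 12 meningeal and vascular genes (1 lower) and 8 of 11 clusters of thalamic genes were higher in the hippocampus. Astrocyte genes had 3 of 8 higher, neuron genes 2 of 8 higher and 3 lower, and microglia genes 0 of 7 past the limit. The amygdala list had 9 of 11 clusters lower in the hippocampus and 1 higher, and the hippocampus list 8 of 12 higher and 2 lower. Over the whole array 8.78% of clusters were lower in the hippocampus and 8.95% higher. The choroid plexus list had 18 of its 20 genes measured and none past the limit, with a mean level of 6.80 to 7.97 in the amygdala and of 6.75 to 8.09 in the hippocampus. The part of striatal, thalamic or ventricular tissue in the region differences was not tested.

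Ttr, the transport protein that marks choroid plexus, fell into a high and a low range over the arrays. It was at 12.7 to 13.4 on 11 arrays and at 10.1 to 11.7 on the other 9, of which 4 were from the amygdala and 5 from the hippocampus. The 11 arrays with the highest Drc7 were the same 11. On them Drc7 was at 6.37 to 6.85, and on the other 9 it was at 5.79 to 6.33. Rsph1 had the same order within the hippocampus, at 7.66 to 8.10 on the 5 arrays high in Ttr and 7.06 to 7.51 on the 5 low ones, while in the amygdala it was at 7.98 to 8.59 on 6 arrays and 7.85 to 8.09 on 4. The ranges of Rsph4a overlapped within both regions, at 7.08 to 7.65 and 6.98 to 7.44 in the amygdala, and at 5.76 to 6.30 and 5.56 to 6.42 in the hippocampus. Foxj1 overlapped as well, at 6.29 to 6.51 and 6.10 to 6.47 over both regions. Among the defining markers Kcnj13 was at 8.40 to 9.79 over all arrays and Kl at 6.47 to 8.22. The part of choroid plexus in the levels of Drc7 and Rsph1 was not tested.

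**Figure D3:**
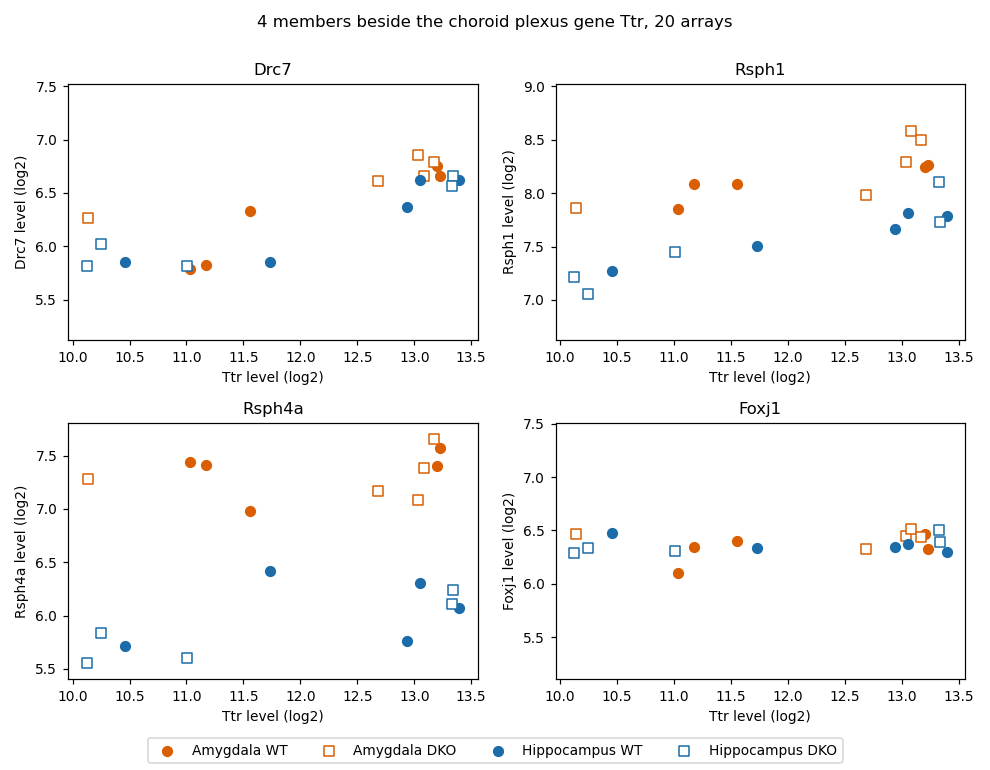
Levels of Drc7, Rsph1, Rsph4a and Foxj1 (log2, y axes) against the level of the choroid plexus gene Ttr (log2, x axis), 1 point per array, with amygdala in orange, hippocampus in blue, WT filled and DKO open. Drc7 is at 6.37 or more on the 11 arrays with Ttr of 12.7 or more and lower on the other 9, while Rsph4a separates by region.

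At baseline Ttr was high on all 4 arrays, at 13.0 to 13.3. Drc7 was then at 6.62 to 6.85, and its region difference was −0.12. Rsph4a differed by −1.05 at baseline, Rsph1 by −0.51 and Armc2 by −0.38, each from 2 arrays per region. The part of choroid plexus in the region differences was not tested. The gap of Foxj1 at baseline was −0.01.

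Changes over time were read from single arrays, each set against the baseline array of its own region and genotype, so no change has a replicate and the 4 changes of a group share 1 baseline. Over the 16 comparisons Drc7 was below its baseline in 15, Rsph1 in 13, and Rsph4a, Cfap43 and Armc2 in 11 each. Ect2l was below in 6 and Dnah10 in 7. Drc7 was lower by 1.5-fold or more in 8 of the 16, namely in the WT amygdala at 0 hr (−0.84) and 1 hr (−0.87), in the DKO amygdala at 0 hr (−0.59), in the WT hippocampus at 48 hr (−0.77) and 1 wk (−0.76), and in the DKO hippocampus from 1 hr (−0.63) through 48 hr (−0.84) to 1 wk (−0.84). These 8 arrays were all among the 9 with low Ttr.

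Rsph4a passed 1.5-fold below baseline on 4 arrays, of the WT amygdala at 48 hr (−0.59), the WT hippocampus at 1 wk (−0.59) and the DKO hippocampus at 48 hr (−0.64) and 1 wk (−0.68). Its highest change was 0.57, in the DKO amygdala at 1 wk. Rsph1 passed it on 1 array, the DKO hippocampus at 1 hr (−0.67). Foxj1, the regulator, read from 1 cluster below the median level, stayed within −0.23 and 0.14 of baseline on all 16 arrays. The WT amygdala array at 1 hr, lowest in Foxj1, was also low in Cfap43 (−0.40), Rsph1 (−0.41) and Spef2 (−0.21).

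Of the 848 single-cluster changes, 29 were lower by 1.5-fold or more (3.42%) and 8 higher (0.943%). Over all clusters of the array 0.533% were lower and 0.621% higher in the same 16 comparisons. Because the genes were chosen from these arrays, the counts are a description. The 8 changes of Drc7 were the most of any of the 53 clusters, followed by the 4 of Rsph4a. A single cluster of Armc2 had 3, all in the WT amygdala. The clusters higher by 1.5-fold were of Spef2 (5), Dnah10 (2) and Cfap43 (1). The 2 DKO arrays at 48 hr were lower over all clusters too, with a median change of −0.13 in the amygdala and −0.09 in the hippocampus, beside medians of −0.15 and −0.08 over the 53 clusters.

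**Figure D4:**
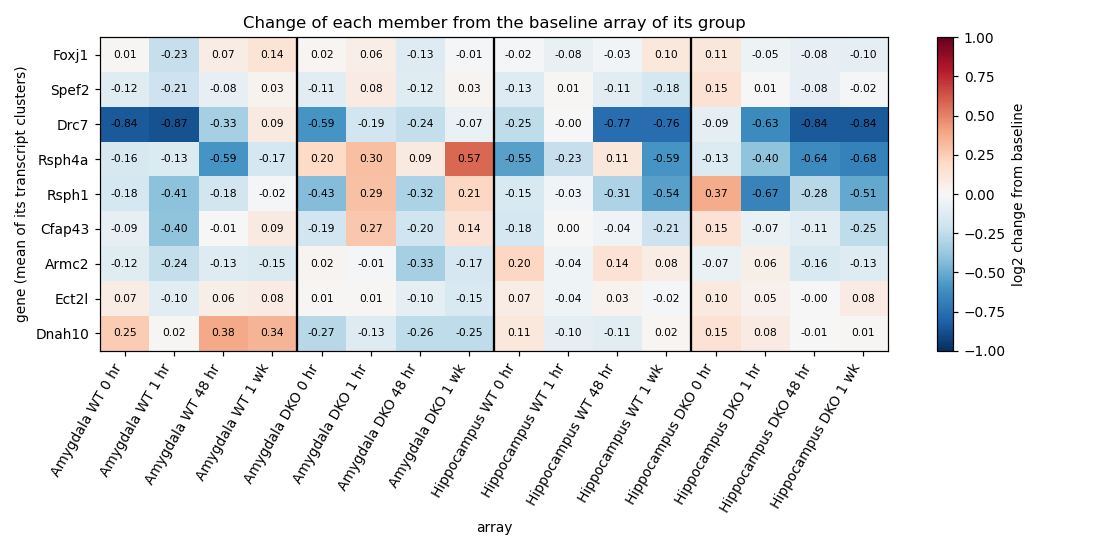
Log2 change of each gene (rows, mean of its clusters) from the baseline array of the same region and genotype for the 16 later arrays (columns), with blue for lower and red for higher values. Drc7 has its lowest values at 0 hr and 1 hr in the WT amygdala (−0.84 and −0.87) and at 48 hr and 1 wk in the DKO hippocampus (−0.84 each).

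Averaged over the 4 groups, Rsph1 changed by −0.27 ± 0.06 (SD, n = 4) at 48 hr and was below baseline in 4 of 4. Drc7 changed by −0.54 ± 0.30 at 48 hr, also in 4 of 4, and by −0.44 ± 0.34 at 0 hr. Spef2 at 48 hr was below in 4 of 4 with a small mean of −0.10 ± 0.02, and so was Cfap43 with −0.09 ± 0.09. The other means lay between −0.43 and 0.06. The share of all clusters below baseline in 4 of 4 was not counted. At 48 hr the median change was −0.03 over all clusters and −0.78 over the 18 clusters of the choroid plexus list. The part of choroid plexus in these changes was not tested.

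DKO and WT arrays were compared within a region, time point by time point. Drc7 was higher in the DKO amygdala at 5 of 5 time points, by 0.19 before training and then by 0.44, 0.87, 0.28 and 0.04. In the hippocampus it was higher at 2 and lower at 3 of them, with a mean difference of −0.09 ± 0.30 (SD, n = 5). Rsph1 differed by 0.14 ± 0.38 in the amygdala and by −0.10 ± 0.42 in the hippocampus. Rsph4a differed by −0.05 ± 0.30 and by −0.18 ± 0.42. Cfap43 was lower in the DKO hippocampus at 4 of 5 time points (−0.21 ± 0.17) and its amygdala mean was 0.15 ± 0.34. At 1 hr the difference was wide for some genes. The DKO amygdala was then above WT in 8 of the 9 genes, with Rsph4a at −0.06, and Rsph1 differed by 0.73. The median over all clusters was also higher on that DKO array, at 6.79 beside 6.68 on the WT array. The share of all clusters above WT was not counted. In the hippocampus at 1 hr Rsph1 differed by −0.73 and Drc7 by −0.59, whereas Armc2 (0.32), Foxj1 (0.04) and Dnah10 (0.01) were on the positive side in both regions. At that time Ttr was at 13.08 in the DKO and 11.03 in the WT amygdala, and at 10.25 in the DKO and 13.39 in the WT hippocampus.

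To see whether other genes of the same machinery showed these patterns, 110 more motile cilium genes were grouped by role, and 103 of them were measured on 148 clusters. These were tested, since the choice of the 9 did not use them by name. The lists were drawn up with earlier results known and were read on the same arrays. They are therefore not independent of the pattern of the 9. Between the regions 55 of the 148 clusters, of 47 genes, were lower in the hippocampus (37.2%), and 3 were higher (2.03%), by limma with Benjamini-Hochberg adjustment over all clusters. Over the whole array 8.78% were lower and 8.95% higher. The median difference of the 148 was −0.14, beside −0.02 for all clusters.

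Central pair genes held the widest differences on the amygdala side. The brighter of 2 clusters of Cfap54 was at 7.93 ± 0.20 in the amygdala and 6.97 ± 0.27 in the hippocampus (SD, n = 10 each), a difference of −0.96 with a standard error of 0.10, and the dimmer one differed by −0.41. The other genes named here by role have 1 cluster each. Cfap69 followed with −0.66 (standard error 0.09), and 10 of 18 central pair clusters were lower. Among radial spoke genes, the partners of Rsph1 and Rsph4a, 7 of 10 clusters were lower, with Cfap251 at −0.57 and Rsph9, another spoke head protein, at −0.48. Of the nexin-dynein regulatory complex, to which Drc7 belongs, 6 of 13 were lower and 1 higher. Drc3 was lower by 0.57 on the log2 scale, and Tcte1, a further subunit, was higher in the hippocampus by 0.20.

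The doublet and other axonemal genes had 15 of 30 clusters lower, among them Lrriq1 (−0.60), the doublet proteins Cfap45 (−0.57) and Cfap44 (−0.56), and Lrrc23 (−0.49). Of the inner dynein arm, where Dnah10 belongs, 12 of 47 clusters were lower, with the intermediate chain gene Dnai4 at −0.49. The assembly factors of dynein arms had 3 of 11 lower, led by Dnaaf11 at −0.49. Outer arm genes had 2 of 9 lower and 1 higher, the heavy chain Dnah9, which was higher in the hippocampus by 0.34 (standard error 0.05). Regulators of multiciliation, the group of Foxj1, had 1 of 10 past the limit. It was Rfx3, a factor that binds the RFX motif, which was higher in the hippocampus by 0.96 (standard error 0.06, adjusted p = 8.1e-12).

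**Figure D5:**
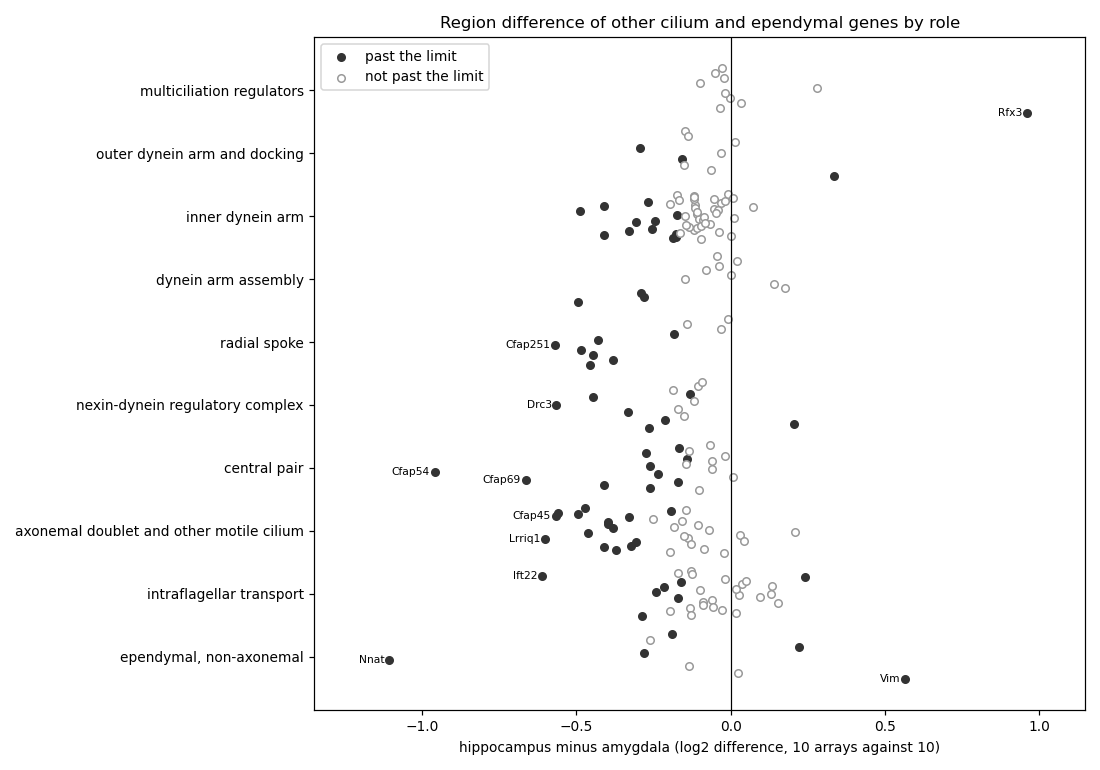
Log2 difference between regions (x axis, mean of 10 hippocampus minus mean of 10 amygdala arrays) for the clusters of other cilium and ependymal genes by role (rows). Filled points passed an adjusted p of 0.05 by limma and open points did not. Most filled points lie to the left of 0, on the amygdala side, with Rfx3 at 0.96 and Vim at 0.56 on the hippocampus side.

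On the baseline arrays alone 124 of the 148 clusters (83.8%) had a negative difference, with a median of −0.13. These values came from 2 arrays per region, with no test. Over all clusters 56.2% were negative, with a median of −0.02. The filter to clusters above the median level left 32 of the 148, of which 21 passed, 19 lower and 2 higher. Of all clusters the same filter left 14426, of which 4235 passed, 1944 lower and 2291 higher.

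Neither genotype nor time gave a call among the 148 clusters. For DKO against WT mice 0 passed in the amygdala and 0 in the hippocampus at an adjusted p of 0.1 by limma. Over the array 0.097% passed that limit in the amygdala and 0.118% in the hippocampus. At an unadjusted p under 0.05 there were 11 and 18 of the 148, beside 1968 and 3294 of all 28853 clusters. The median difference of the 148 was 0.09 in the amygdala and −0.06 in the hippocampus. The difference between these effects passed for none of the 148, beside 0.0104% of all clusters. For it 34 of the 148 and 5023 of all 28853 clusters had an unadjusted p under 0.05. With time as a block, 1 of the 148 was lower in the DKO hippocampus, and up to 2 passed when 1 array was left out, namely without the DKO array at 0 hr or the WT array at 1 hr.

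Against baseline, with the 4 groups as replicates, none of the 148 passed at any time by limma. At an unadjusted p under 0.05 there were 5, 8, 12 and 5 from 0 hr to 1 wk. Of all 28853 clusters 745, 1778, 1036 and 900 were under it. In the same order, 0.00347%, 0.0243%, 0% and 0.00347% of all clusters were past the limit. With 4 arrays per time point and 1 pool on each, these p-values measure the spread between groups, and the source does not say whether both regions came from the same mice.

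The genes whose profile was most like the mean of the 9 were mostly ciliary. The measure was Pearson's r over the 20 arrays, which share the region difference, and it is given as a rank only. Lrrc23 was first (0.96), then Pifo, a ciliary gene (0.93), Cfap44 (0.93), Tbc1d9 (0.93), Cfap206 (0.92), Cfap91, listed on the array as Maats1 (0.92), Cfap161 (0.91), the protease inhibitor Spint2 (0.90), the central pair gene Hydin (0.90) and Cfap65 (0.90). Of these 10, 7 were in the motile cilium lists. Pifo was at 6.69 to 7.73 in the amygdala and 5.80 to 6.98 in the hippocampus.

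Within a single region the nearest genes were others. Over the 10 amygdala arrays they were the folate receptor Folr1 (0.95), 6820408C15Rik (0.94), Dmrt3 (0.94), Mia (0.93) and Igfbp2 (0.92). Over the 10 hippocampus arrays they were Nek5 (0.95), Slc13a4 (0.94), Lrrc23 (0.94), Pifo (0.93) and Ttr (0.92). Folr1 and Ttr are on the choroid plexus list and Mia on that of other ependymal genes. Among the 9 genes themselves the 36 pairs had r between 0.10 and 0.87 over the 20 arrays, with a median of 0.52. Within the amygdala r ran from −0.59 (Rsph4a with Dnah10) to 0.93, with a median of 0.42 and 4 pairs below 0. Within the hippocampus it ran from −0.36 (Spef2 with Armc2) to 0.81, with a median of 0.27 and 6 pairs below 0.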

How the data were processed

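RNA of amygdala and hippocampus was hybridised to Affymetrix Mouse Gene 1.0 ST arrays, 20 in all. The authors deposited log2 values, made with RMA in Affymetrix Expression Console per the labels (background correction, quantile normalization and summary per transcript cluster; the genome build is not given in the sources used here). RMA compresses the changes of dim clusters. Of the 28853 clusters, 21789 had 1 gene symbol, 1621 several and 5443 none.

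The members and lists were chosen with earlier results of these data known. Members are described with no test. Other genes were tested with limma 3.58.1 in R 4.3.3 (lmFit, eBayes), adjusted by Benjamini-Hochberg over all clusters, with a limit of 0.1 for genotype, as in the study's methods, and 0.05 otherwise. Time points served as replicates for region and genotype, and the 4 groups for time. The fits were tested on simulated data. Named genes were the members, the 10 clusters of highest r with their mean (5 within each region), and up to 10 listed genes of widest difference past a limit. Alternatives were a filter at the median level, quantile normalization, median centring, a trend, array weights, blocks, the methods' t-test and each array left out. Python 3.11.15 was used otherwise. The number of arrays limits the precision.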

Additional observations from a re-analysis of the deposited data

How the results depend on the processing

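Of the 148 other motile cilium clusters, 58 differed between regions, and 57 to 72 did so under quantile normalization, median centring, a trend, array weights and a replicate block of genotype and time, all mostly lower in the hippocampus. Leaving out 1 array at a time gave 50 to 66, and leaving out both DKO arrays at 48 hr, chosen after seeing the data, gave 64. Above the median level only 32 were tested and 21 passed, beside 4235 of the 14426 clusters tested there. The genotype count in the hippocampus was 0, with 1 under a replicate block of time and 0 to 2 with 1 array left out. In the amygdala, for the difference of the effects and at each time it was 0 under every alternative run, the methods' t-test included for genotype. The mean region difference of the 9 genes, −0.32, ran from −0.34 to −0.30 with 1 array left out. It joins unlike genes, from −1.38 for Rsph4a and −0.61 for Rsph1 to −0.02 for Foxj1.

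The difference of Foxj1 turned from −0.02 to 0.0047 under quantile normalization and 0.0019 under median centring. With the brightest cluster in place of the mean, Spef2 turned to 0.12 and Ect2l to 0.040. The 37 single-array changes past 1.5-fold became 114 at 1.3-fold and 0 at 2-fold.

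Over all clusters the genotype calls in the hippocampus went from 34 (5 higher, 29 lower) to 55 (26 higher, 29 lower) under median centring and to 73 without the WT array at 1 hr. Calls of the difference between the effects went from 3 to 1 above the median level and to 5 without the DKO hippocampus array at 48 hr. Calls at 1 hr went from 7 to 47 with array weights and to 2 without 1 array. At 0 hr and 1 wk the single call was lost under quantile normalization and median centring. The cause of these shifts was not tested.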

Other observations

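Genes of the cilium outside the motile axoneme were also measured. Of 29 intraflagellar transport genes, which carry parts into all cilia, 6 were lower in the hippocampus and 1 higher by limma. Over the whole array 8.78% of clusters were lower there and 8.95% higher. Ift22, a small GTPase of the transport complex, was at 9.67 ± 0.10 in the amygdala and 9.06 ± 0.07 in the hippocampus (SD, n = 10 each), and its ranges did not overlap. Ift88 was lower by 0.29 on the log2 scale, Ift74 by 0.24 and the motor gene Kif3a by 0.22, while Ift80 was higher in the hippocampus by 0.24. Ift27 was the 1 gene of this list past the genotype limit, lower in DKO mice in both regions. Over the array 0.097% of clusters passed in the amygdala and 0.118% in the hippocampus. Ift27 lies on chromosome 15, as does the targeted gene Adcy8, so an effect of the targeted locus and one of AC loss cannot be told apart.

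Of 8 other genes used as ependymal markers, 3 were lower and 2 higher in the hippocampus, beside 8.78% and 8.95% of all clusters. Nnat, which neurons also express, was at 9.82 ± 0.15 in the amygdala and 8.71 ± 0.09 in the hippocampus. Vim, an intermediate filament gene shared with astrocytes and vessels, was higher in the hippocampus by 0.56 and Prom1 by 0.22. Rarres2 was lower there by 0.28 and Tppp3 by 0.19. Cd24a, at 8.95 to 9.65 in the amygdala and 9.03 to 9.54 in the hippocampus, did not pass the limit.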
